A study of Mus musculus with 12 samples.

Results

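The genes described here carry tryptophan into breakdown, into protein synthesis or into signalling, and they were read in colon tumours of mice with transplanted bone marrow. There were 10 of them, Ido1, Ido2, Tdo2, Afmid, Kmo, Kynu, Haao, Qprt, Wars and Ahr, out of 24062 genes in the count table. All 10 had an entry, and 8 had enough reads to be tested, since Ido2 and Qprt lay below the filter on low counts. They were chosen by pathway, after the read counts of these same tumours and the host differences of Ido1 and Wars in them were known, so those differences are given as descriptions.

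Tryptophan is an essential amino acid, and most of what is not built into protein is broken down through kynurenine. Ido1, Ido2 and Tdo2 encode the dioxygenases that open its indole ring, Afmid encodes the formamidase that releases kynurenine, and Kmo, Kynu and Haao encode enzymes that lead on to quinolinate. Qprt then feeds quinolinate into NAD synthesis, and Wars encodes the ligase that loads tryptophan onto its tRNA. Ahr encodes a receptor that kynurenine and indole compounds can bind. In many cells Ido1 and Wars are both induced by interferon gamma, whereas Tdo2 is best known from liver.

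Each tumour came from a lethally irradiated mouse of the Balb/c background that had received bone marrow and, later, azoxymethane (AOM), a carcinogen that produces colon tumours. The groups are written marrow => host, and were St2-/- => St2-/-, WT => St2-/-, St2-/- => WT and WT => WT, with 3 tumours each and 12 in all. Irradiation was given in 2 doses of 5 Gy, followed by transfer of donor marrow, 8 weeks of reconstitution and 6 weekly AOM injections of 10 mg/kg. St2 is the receptor for interleukin 33 and is encoded by Il1rl1. The sources used here do not say which part of the gene the St2-/- allele lacks. The interval between the last injection and collection was 13 or 14 weeks, and every mouse was male except WT => St2-/- replicate 3. In such a chimera the blood cells come from the donor, while the epithelium and stroma keep the genotype of the host. The numbers in the sample labels have 5 digits for WT hosts and 3 digits for St2-/- hosts, so host genotype and whatever those numbers stand for cannot be told apart.

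Gene counts lay between 10293818 and 12962496 per library. Il1rl1 stood at 13.4, 7.91 and 10.7 CPM (counts scaled to a common library size with edgeR's TMM factors) in St2-/- => St2-/- tumours and at 11.9, 25 and 7.3 CPM in WT => St2-/- tumours, against 125, 36.5 and 193 CPM in St2-/- => WT tumours and 53.5, 132 and 275 CPM in WT => WT tumours. The 2 hosts did not overlap, which checks the host labels, while the 2 marrows overlapped within each host and were not checked by this gene. Summed CPM of 10 colon epithelium markers ranged over 5770 to 13147 in St2-/- hosts and 10757 to 15276 in WT hosts. Smooth muscle markers summed to 3515 CPM in WT => St2-/- replicate 2, 1653 CPM in WT => St2-/- replicate 3, 2894 CPM in St2-/- => WT replicate 1 and 1489 CPM in St2-/- => WT replicate 2, and to between 230 and 507 CPM in the other libraries. WT => St2-/- replicate 2 also had the lowest epithelial sum. None of the 10 markers each of epithelium, smooth muscle and endothelium was called between hosts by edgeR, with 4, 0 and 2 at an unadjusted p under 0.05. Of all 15060 tested genes, 3099 were at such a p. All 10 epithelium markers were below 0 (median log2 fold change -0.38) and all 10 endothelium markers above 0 (median 0.53), with endothelial sums of 201 to 352 CPM in St2-/- hosts and 103 to 361 CPM in WT hosts. For smooth muscle the averaged median was 0.13. It was -2.05 with St2-/- marrow in both hosts (10 of 10 below 0) and 2.44 with WT marrow in both (10 of 10 above 0). The part of these shifts in the host differences of the members was not tested.

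Of the members, Ido1, at the entry of tryptophan into breakdown, differed most between hosts. Ido1 stood at 3.59, 9.42 and 1.16 CPM in the St2-/- => St2-/- tumours and at 2.45, 0.696 and 0.879 CPM in the WT => St2-/- tumours. It stood at 210, 405 and 212 CPM in the St2-/- => WT tumours and at 92.6, 88.2 and 170 CPM in the WT => WT tumours. All 6 tumours of St2-/- hosts were thus low and all 6 of WT hosts high, whichever marrow the mouse had received. A separation of the hosts in that direction was shown by 1.71% of tested genes. The low values rested on 47, 119 and 15 reads in St2-/- => St2-/- tumours and 29, 8 and 10 reads in WT => St2-/- tumours.

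Averaged over both marrows, Ido1 in St2-/- hosts was 70.8-fold below its level in WT hosts, a log2 fold change of -6.15 (SE 0.52). By the size of its difference it ranked 5 among 15060 tested genes. With St2-/- marrow in both, the log2 fold change was -5.87 (SE 0.71), and with WT marrow in both it was -6.43 (SE 0.76). The difference between these host effects, St2-/- marrow minus WT marrow, was 0.56 (SE 0.92; edgeR adjusted p = 0.902). Without St2-/- => St2-/- replicate 2, the highest Ido1 tumour of the St2-/- hosts, the value with St2-/- marrow was -6.85 and the difference -0.42. These are bulk tumours, so fewer cells that make Ido1 and less Ido1 RNA per cell cannot be told apart.

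**Figure D1:**
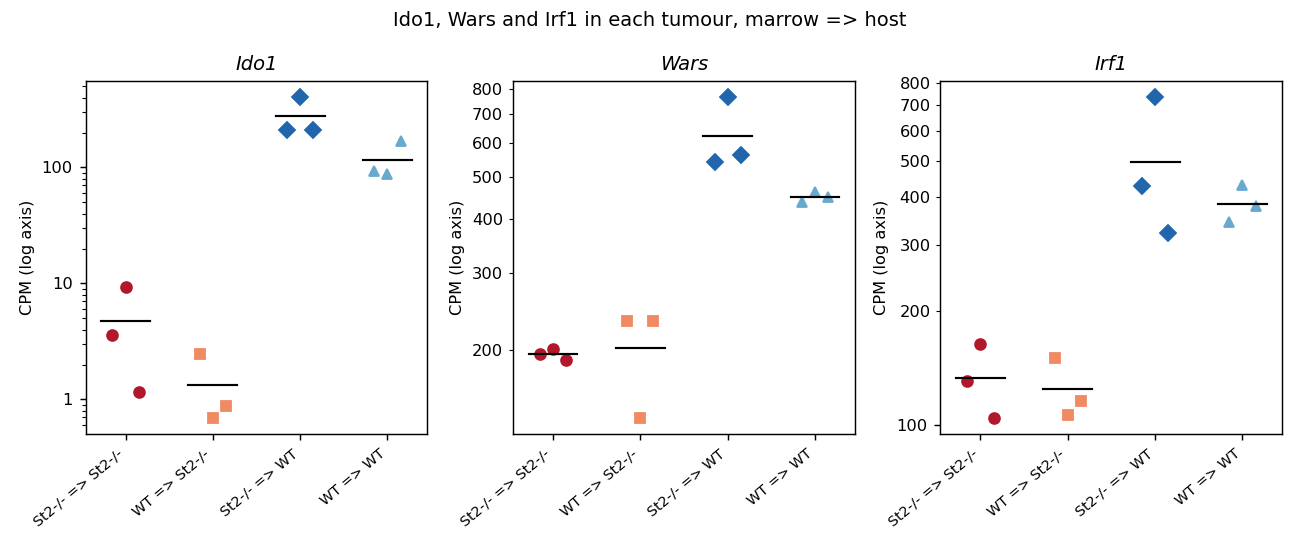
Ido1, Wars and Irf1 in each of the 12 tumours, as CPM on a log axis, with the 4 marrow => host groups side by side. Points are tumours and horizontal lines are means of 3. For each gene the 6 tumours of St2-/- hosts lie below the 6 of WT hosts, and Ido1 spans the widest range, 0.696 to 405 CPM.

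Ido2 lies next to Ido1 on chromosome 8, with 7802 bases between them. On GRCm38 (GENCODE M21), Ido1 is at chr8:24584136-24597009 and Ido2 at chr8:24531892-24576333, both on the minus strand. Ido2 was close to the limit of detection, with 0, 2 and 1 reads in St2-/- => St2-/- tumours, 4, 6 and 3 reads in WT => St2-/- tumours, 23, 12 and 8 reads in St2-/- => WT tumours and 1, 7 and 7 reads in WT => WT tumours. The St2-/- => WT tumours were the highest 3 of the 12. Without the filter on low counts, edgeR gave Ido2 a host log2 fold change of -2.02 (SE 0.61; adjusted p = 0.150), which did not pass the threshold of 0.05.

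Tdo2, the third dioxygenase gene, was barely read in any tumour. It had 3, 7 and 3 reads in St2-/- => St2-/- tumours, 7, 10 and 4 reads in WT => St2-/- tumours, 5, 4 and 11 reads in St2-/- => WT tumours and 2, 9 and 5 reads in WT => WT tumours. The hosts overlapped, and the host log2 fold change was -0.20 (SE 0.48; edgeR adjusted p = 0.851), with a 95% interval of -1.15 to 0.74. A difference of that size was not detectable at these counts. Hepatocyte markers, 8 in all with 4 tested, summed to 46.2 to 103 CPM in St2-/- hosts and 58.7 to 139 CPM in WT hosts, with 0 called, and their part in Tdo2 was not tested.

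Per kilobase of exon, which allows levels of different genes to be compared, Ido1 averaged 1.66 ± 1.82 CPM per kb in St2-/- hosts and 108 ± 63.4 CPM per kb in WT hosts (SD, n = 6 each). Wars was the one member above Ido1 in mean level in WT hosts, with overlapping ranges, and it averaged 57.5 ± 10.0 CPM per kb in St2-/- hosts and 156 ± 35.6 CPM per kb in WT hosts (SD, n = 6 each). In St2-/- hosts the order of mean levels was Wars, Ahr at 6.90 ± 1.01 CPM per kb, Afmid at 3.08 ± 1.04 CPM per kb, then Ido1. The ranges of Afmid and Ido1 overlapped there, and so did those of Haao, Kynu and Kmo, which averaged 0.663 ± 0.673, 0.472 ± 0.195 and 0.399 ± 0.426 CPM per kb. In WT hosts Ido1 moved up to second place, ahead of Ahr at 5.80 ± 1.17 CPM per kb and Afmid at 3.08 ± 1.13 CPM per kb, whose ranges did not overlap that of Ido1. Kynu, Haao and Kmo averaged 0.626 ± 0.245, 0.533 ± 0.472 and 0.503 ± 0.372 CPM per kb in WT hosts, with overlapping ranges, and Ido2, Tdo2 and Qprt averaged at most 0.230 CPM per kb in either host.

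Below the first step the pathway was thinly expressed, and none of its genes differed detectably between hosts. Afmid had 12.4, 8.15 and 8.43 CPM in St2-/- => St2-/- tumours, 11.2, 7.91 and 17.4 CPM in WT => St2-/- tumours, 14.8, 14.7 and 8.67 CPM in St2-/- => WT tumours and 13.7, 5.51 and 8.04 CPM in WT => WT tumours. Its host log2 fold change was 0.01 (SE 0.28; edgeR adjusted p = 0.983; 95% interval -0.53 to 0.56). Afmid shares 1566 exonic bases with Gm20708 on the same strand and 83 with Tk1 on the opposite one, so its reads are less certain.

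Kynu, whose product cleaves kynurenine and 3-hydroxykynurenine, had 3.90, 2.06 and 2.94 CPM in St2-/- => St2-/- tumours, 1.10, 3.04 and 4.39 CPM in WT => St2-/- tumours, 5.69, 5.57 and 2.08 CPM in St2-/- => WT tumours and 2.66, 3.19 and 3.90 CPM in WT => WT tumours. The hosts overlapped throughout, and the log2 fold change was -0.39 (SE 0.37; edgeR adjusted p = 0.584; 95% interval -1.11 to 0.34). With single libraries left out it ran over -0.62 (without WT => St2-/- replicate 3) to -0.18 (without WT => St2-/- replicate 1), and without WT => St2-/- replicates 2 and 3 it was -1.07 (adjusted p = 0.358).

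Kmo, the hydroxylase that turns kynurenine into 3-hydroxykynurenine, had 5.88, 0.791 and 1.31 CPM in St2-/- => St2-/- tumours, 0.423, 1.13 and 1.76 CPM in WT => St2-/- tumours, 3.79, 5.14 and 0.434 CPM in St2-/- => WT tumours and 1.46, 1.35 and 2.07 CPM in WT => WT tumours. Its host log2 fold change was -0.39 (SE 0.63; edgeR adjusted p = 0.765; 95% interval -1.63 to 0.85). With single libraries left out it ran over -1.04 (adjusted p = 0.391, without St2-/- => St2-/- replicate 1) to -0.098 (without St2-/- => WT replicate 2), and without WT => St2-/- replicates 2 and 3 it was -1.07 (adjusted p = 0.656).

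Haao, the dioxygenase of 3-hydroxyanthranilate, had 8.25, 0.633 and 1.93 CPM in St2-/- => St2-/- tumours, 0.339, 1.83 and 5.63 CPM in WT => St2-/- tumours, 4.39, 6.00 and 0.434 CPM in St2-/- => WT tumours and 1.37, 0.870 and 1.91 CPM in WT => WT tumours. Its host log2 fold change was 0.45 (SE 0.78; edgeR adjusted p = 0.787; 95% interval -1.08 to 1.97), and -1.003 (adjusted p = 0.717) without WT => St2-/- replicates 2 and 3. With single libraries left out it ran over -0.28 (adjusted p = 0.880, without St2-/- => St2-/- replicate 1) to 0.75 (without St2-/- => WT replicate 2), and it was also below 0, at -0.18, without WT => St2-/- replicate 3. The intervals of Kmo, Kynu and Tdo2 reached past a 2-fold loss, and that of Haao past a 2-fold change in both directions.

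Qprt, the last enzyme before the NAD pathway proper, had 4, 1 and 1 reads in St2-/- => St2-/- tumours, 0, 1 and 8 reads in WT => St2-/- tumours, 1, 7 and 0 reads in St2-/- => WT tumours and 2, 1 and 4 reads in WT => WT tumours. A library with 0 reads still allows up to 3. Without the filter on low counts edgeR gave a host log2 fold change of -0.09 (SE 0.88; adjusted p = 1.000), so nothing between a large loss and a large gain could be told at this depth.

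**Figure D2:**
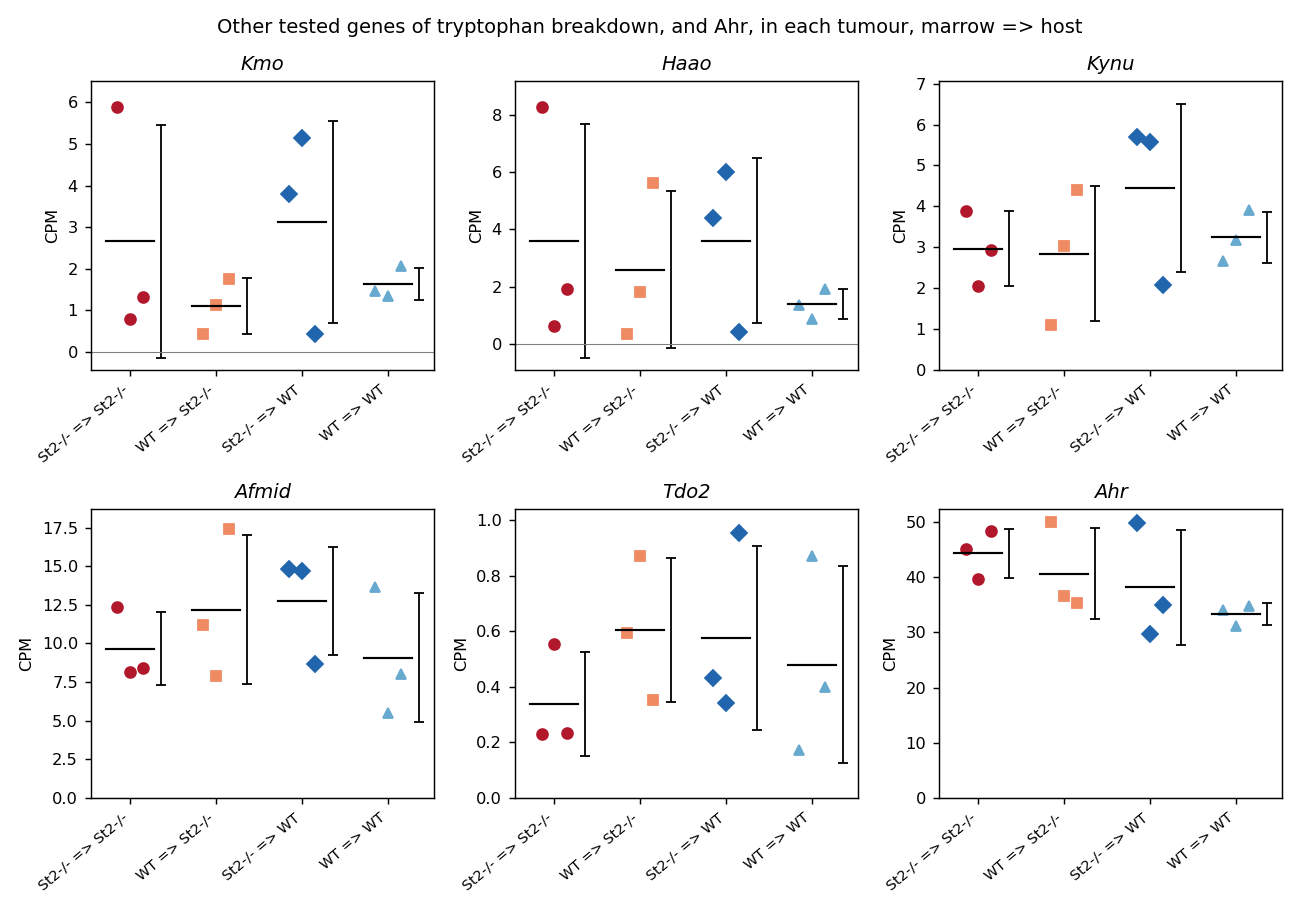
Kmo, Haao, Kynu, Afmid, Tdo2 and Ahr in each of the 12 tumours, as CPM on linear axes, by marrow => host group. Points are tumours, horizontal lines are means and the bars beside them are ± SD (n = 3). The hosts overlap for all 6 genes, and Kmo reaches 5.88 CPM in 1 St2-/- => St2-/- tumour and 5.14 CPM in 1 St2-/- => WT tumour.

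Kmo, Haao, Kynu and Afmid varied widely from tumour to tumour, and largely the same tumours were high. The highest library exceeded the lowest 24.4-fold for Haao, 13.9-fold for Kmo, 5.17-fold for Kynu and 3.16-fold for Afmid, against 1.68-fold for Ahr. St2-/- => St2-/- replicate 1, WT => St2-/- replicate 3 and St2-/- => WT replicates 1 and 2 were among the 5 highest libraries for each of Kmo, Haao, Kynu and Afmid.

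Those 4 libraries were also the highest for a list of 10 B cell markers, written after the values of Kmo and Haao had been seen. The markers summed to 576, 35.9 and 87.1 CPM in St2-/- => St2-/- tumours, 37.4, 80 and 239 CPM in WT => St2-/- tumours, 316, 321 and 29.1 CPM in St2-/- => WT tumours and 29, 13.4 and 152 CPM in WT => WT tumours. None of the 10 was at 0 in any library, and none was called between hosts or between marrows. All 10 were above 0 in St2-/- hosts over WT hosts, averaged over marrows (median log2 fold change 0.58). The median was 0.10 with St2-/- marrow in both hosts (6 of 10 above 0) and 1.02 with WT marrow in both (10 of 10 above 0). All 10 were also above 0 for St2-/- marrow over WT marrow, averaged over hosts (median 1.31). In the latter comparison Kmo stood at 1.10 (SE 0.64) and Haao at 0.92 (SE 0.78), and neither was called. Over the 12 libraries, the centred log2 CPM of Kmo was nearest to those of Rasal3, Ptprcap, Wdfy4, AI504432 and Ikzf3, with root mean square differences of 0.29 to 0.32. Haao was nearest to Slamf6, Ikzf3, Traf3ip3, Napsa and 4931429I11Rik, with differences of 0.33 to 0.41. The part of B cells in the levels of Kmo, Haao, Kynu and Afmid was not tested.

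**Figure D3:**
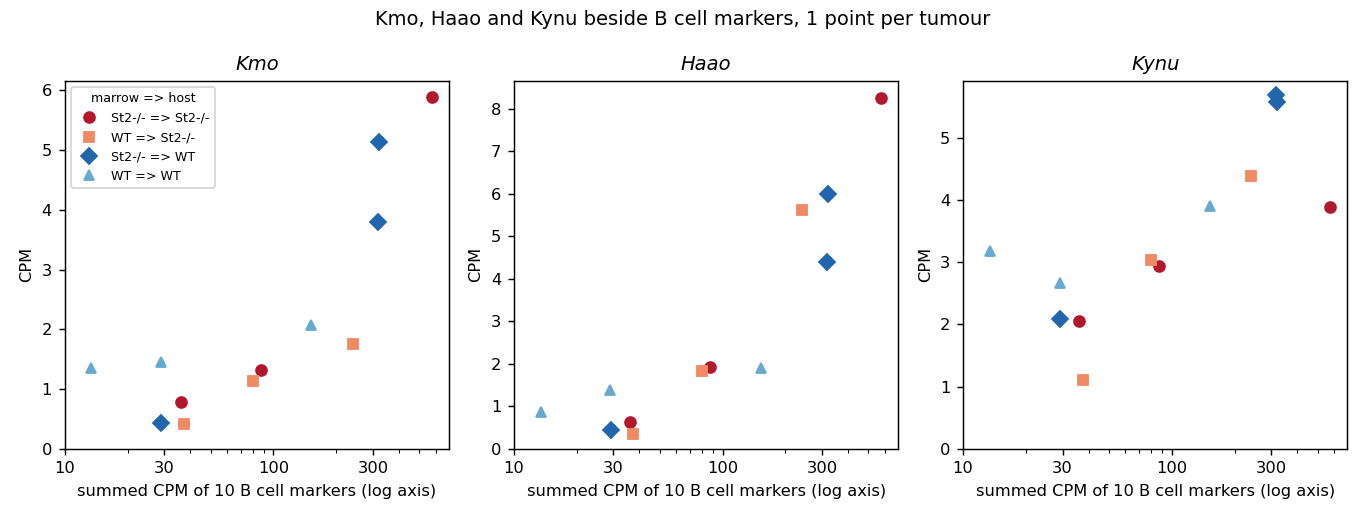
Kmo, Haao and Kynu, in CPM on linear axes, against the summed CPM of 10 B cell markers on a log axis, with 1 point per tumour and a symbol for each marrow => host group. The 4 tumours with the highest marker sums, 239 to 576 CPM, include the highest tumour for each gene.

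Wars, the gene for the ligase that draws on the same tryptophan, differed between hosts in the same direction as Ido1 and by less. It stood at 195, 200 and 189 CPM in St2-/- => St2-/- tumours and at 233, 139 and 233 CPM in WT => St2-/- tumours. It stood at 543, 765 and 562 CPM in St2-/- => WT tumours and at 438, 463 and 449 CPM in WT => WT tumours. The hosts did not overlap, a separation that 1.71% of tested genes also showed in that direction. The lowest tumour, WT => St2-/- replicate 2, was the one with the fewest epithelial and the most smooth muscle marker reads. The part of that composition in its level was not tested.

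The Wars log2 fold change between hosts was -1.42 (SE 0.14), or 2.67-fold lower in St2-/- hosts. It was -1.68 (SE 0.21) with St2-/- marrow in both and -1.16 (SE 0.20) with WT marrow in both, and the difference, St2-/- marrow minus WT marrow, was -0.52 (SE 0.28; edgeR adjusted p = 0.682). Wars is at chr12:108860030-108894174 on the minus strand of GRCm38.

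Wars stood apart in size from the other cytoplasmic aminoacyl-tRNA ligase genes, which charge tRNAs with other amino acids. Of 19 such genes, all tested, 0 were called between hosts by edgeR, and their median log2 fold change was -0.19 with a range of -0.49 to 0.05, beside -0.0015 over all tested genes. An unadjusted p under 0.05 was found for 3 of them, and for 3099 of all 15060 tested genes. The nearest to Wars were Kars at -0.49 (SE 0.11; edgeR adjusted p = 0.0674), Nars at -0.37 (SE 0.11; adjusted p = 0.118) and Aars at -0.32 (SE 0.12; adjusted p = 0.178). The DESeq2 Wald test called Kars and Nars, with adjusted p of 0.00374 and 0.0214, and called 1196 of all 15060 tested genes. The median of the list was 0.01 with St2-/- marrow in both hosts and -0.39 with WT marrow in both. Whether Wars differed from the other ligases was not tested.

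**Figure D4:**
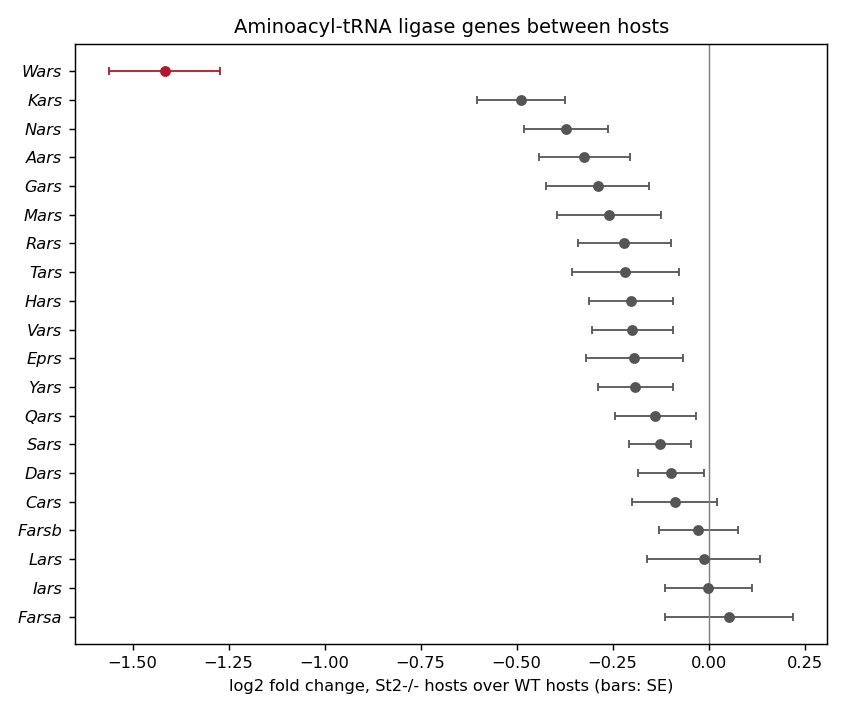
Host log2 fold change (St2-/- hosts over WT hosts, averaged over marrows; bars are SE) of Wars and 19 other aminoacyl-tRNA ligase genes, sorted by size. Wars is at -1.42 and the others lie between -0.49 and 0.05.

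Ahr, the receptor gene, varied least among the 8 tested members. It had 45.1, 39.6 and 48.5 CPM in St2-/- => St2-/- tumours, 50.1, 36.6 and 35.3 CPM in WT => St2-/- tumours, 49.9, 29.7 and 35.0 CPM in St2-/- => WT tumours and 34.0, 31.1 and 34.9 CPM in WT => WT tumours. The hosts overlapped, and the log2 fold change was 0.25 (SE 0.14; edgeR adjusted p = 0.333; 95% interval -0.02 to 0.53). The 3 WT => St2-/- tumours lay just above the 3 WT => WT tumours, with a log2 fold change of 0.29 (SE 0.20; adjusted p = 0.482), a separation that 7.84% of tested genes also showed in that direction.

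Of the 8 tested members, edgeR called 2 between hosts averaged over marrows, Ido1 and Wars, both lower in St2-/- hosts, where 1.37% of all tested genes were called in either direction and 1.08% as lower. With St2-/- marrow in both hosts it called 2, Ido1 and Wars, where 0.0598% of genes were called in either direction and 0.0531% as lower. With WT marrow in both it called 1, Ido1, where 0.159% were called in either direction and 0.12% as lower. Both genes were also lower without overlap within each marrow, as were 12.7% of genes with St2-/- marrow and 9.82% with WT marrow. Nothing is read from these counts, since the members were chosen with this contrast known. The median log2 fold change of the 8 was -0.30.

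The averaged calls held without any single library. The calls within 1 marrow did not. These fits reuse the tumours in which Ido1 and Wars were chosen. They describe dependence on libraries and settings and lend the host differences no support. With St2-/- marrow in both hosts, 0 members were called without WT => WT replicate 3, St2-/- => WT replicate 2 or St2-/- => St2-/- replicate 1 or 3, and 1 was called without St2-/- => St2-/- replicate 2. With WT marrow in both, 0 were called without WT => WT replicate 2 or 3, without WT => St2-/- replicate 2 or 3, or without St2-/- => St2-/- replicate 1, and 2 were called without St2-/- => WT replicate 2 or WT => St2-/- replicate 1. With St2-/- marrow in both, the replicate block and the fit of only those 2 groups also called 0 members, and the weeks covariate called 1. With WT marrow in both, the fit of only those 2 groups called 0.

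Without both WT => St2-/- replicates 2 and 3, the averaged log2 fold change of Ido1 was -5.72 and that of Wars -1.31. Without all 4 libraries of high smooth muscle sums, which also leaves out St2-/- => WT replicates 1 and 2, Ido1 was at -5.53 and Wars at -1.24. In both fits a group left with 1 tumour is assumed to vary like the other groups, and fewer residual degrees of freedom remain.

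**Figure D5:**
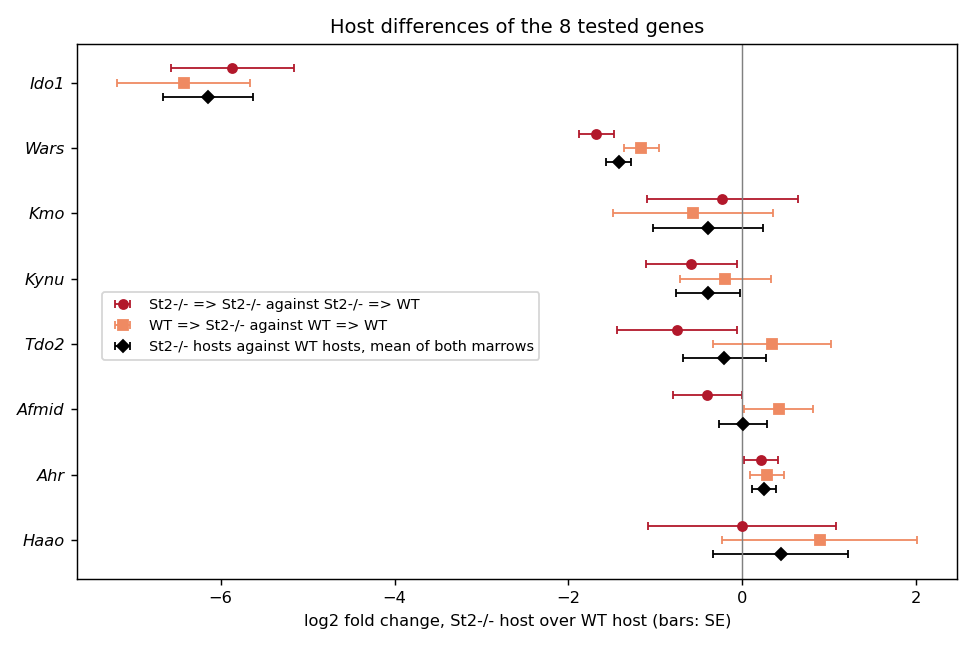
Host log2 fold changes of the 8 tested members (St2-/- host over WT host; bars are SE), with St2-/- marrow in both hosts, with WT marrow in both and averaged. Ido1 lies at about -6 and Wars between -1.68 and -1.16, while the averaged values of the other 6 lie between -0.39 and 0.45.

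The marrow made no difference that passed the test for any member. Averaged over hosts, 0 of 15060 genes (0%) were called by edgeR, by DESeq2 or by limma-voom, and 415 (2.76%) had an unadjusted p under 0.05. Among the 8 tested members Ido1 had the largest value, 1.52 on the log2 scale (SE 0.46; edgeR adjusted p = 0.999) for St2-/- marrow over WT marrow. The host by marrow interaction likewise gave 0 calls (0%) by edgeR and limma-voom and 93 by DESeq2, with 1144 genes (7.6%) at an unadjusted p under 0.05.

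In WT hosts, all 3 St2-/- => WT tumours had more Ido1 and more Wars than all 3 WT => WT tumours. On the log2 scale Ido1 was at 1.24 (SE 0.57) and Wars at 0.47 (SE 0.20), each with an edgeR adjusted p of 0.798, and neither passed. Of all tested genes, 4.9% separated in that direction, 0 (0%) were called by edgeR, DESeq2 or limma-voom, and 910 (6.04%) had an unadjusted p under 0.05. Without St2-/- => WT replicate 2, the highest tumour for both genes, the values were 0.84 for Ido1 and 0.28 for Wars. All 10 smooth muscle markers were above 0 for St2-/- marrow over WT marrow in WT hosts (median 2.22). In St2-/- hosts all 10 were below 0 (median -2.34). Their part in the marrow values of the members was not tested.

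In St2-/- hosts, the St2-/- => St2-/- tumours overlapped with the WT => St2-/- tumours for both genes. For Ido1 the value was 1.80 on the log2 scale (SE 0.73; edgeR adjusted p = 0.995), or 0.81 without St2-/- => St2-/- replicate 2, and for Wars it was -0.05 (SE 0.20; adjusted p = 0.997). Here edgeR and limma-voom called 0 genes (0%) and DESeq2 called 14, with 610 (4.05%) at an unadjusted p under 0.05. Kmo stood at 1.27 on the log2 scale there (SE 0.91; edgeR adjusted p = 0.995), and at -0.05 without St2-/- => St2-/- replicate 1. Ido2, below the filter, had fewer reads in all 3 St2-/- => St2-/- tumours than in all 3 WT => St2-/- tumours, as did 4.23% of tested genes.

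The tested genes whose pattern over the 12 tumours lay nearest to that of Ido1, by the root mean square difference of centred log2 CPM, were Tgtp1 at 1.17, Iigp1 at 1.24, Cxcl9 at 1.44, Gm4841 at 1.46 and Gbp2b at 1.48. Iigp1, an immunity-related GTPase gene, averaged 19.1 ± 18.0 CPM in St2-/- hosts and 382 ± 311 CPM in WT hosts (SD, n = 6 each). Near to Wars by the same measure were Parp14 at 0.23, Trim30a at 0.24, H2-T23 at 0.25 and Psmb10 at 0.25. Psmb10, a subunit of the immunoproteasome, averaged 91.2 ± 20.5 CPM in St2-/- hosts and 225 ± 54.9 CPM in WT hosts. Tgtp1, Gbp2b and H2-T23 have close relatives, so their reads are less certain.

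Among genes known to act in the induction of Ido1 and Wars, edgeR called Ifng and Irf1 lower in St2-/- hosts. Ifng, the interferon gamma ligand, had 1, 2 and 1 reads in St2-/- => St2-/- tumours and 0, 1 and 0 reads in WT => St2-/- tumours, against 21, 48 and 6 reads in St2-/- => WT tumours and 6, 11 and 24 reads in WT => WT tumours (edgeR adjusted p = 0.0124). The hosts did not overlap, as for 1.71% of tested genes in that direction. The call of Ifng was lost without St2-/- => St2-/- replicate 1 (edgeR adjusted p = 0.0544) or replicate 3 (adjusted p = 0.0535).

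Irf1, a transcription factor of the interferon response, had 131, 164 and 105 CPM in St2-/- => St2-/- tumours and 151, 106 and 116 CPM in WT => St2-/- tumours, against 429, 736 and 322 CPM in St2-/- => WT tumours and 344, 430 and 380 CPM in WT => WT tumours. All 6 tumours of St2-/- hosts were below all 6 of WT hosts, as for 1.71% of tested genes. The log2 fold change of Irf1 was -1.76 (SE 0.21; edgeR adjusted p = 0.00331). Irf8 at -1.09 (SE 0.24; edgeR adjusted p = 0.0539) came close, and neither Ifngr1 (-0.75, adjusted p = 0.114) nor Jak2 (-0.32, adjusted p = 0.256) passed. Of 18 other targets of interferon gamma, 17 were called lower, with a median of -2.45. Over all tested genes 1.08% were called lower, and the median was -0.0015. Within marrows edgeR called 0 of the 18 with St2-/- marrow in both hosts (median -2.31) and 1 with WT marrow in both (median -2.75). Since these genes were part of the earlier results of the same tumours, they are no independent sign of what Ido1 did. Over 21 alternatives Irf1 was called in 19 and Ifng in 17. Without both WT => St2-/- replicates 2 and 3, neither Irf1 nor Ifng was called, with edgeR adjusted p of 0.107 for Irf1 and 0.128 for Ifng, nor without all 4 libraries, with 0.205 and 0.391.

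The 11 T cell and NK cell markers summed to 9.31 to 45.1 CPM in St2-/- hosts and to 31.2 to 86.9 CPM in WT hosts. With edgeR 0 of the 8 tested passed, 3 of them having an unadjusted p under 0.05. Of all 15060 tested genes, 3099 had such a p. Cd8a at -2.45 (edgeR adjusted p = 0.0793) and Cd8b1 at -2.34 (adjusted p = 0.102), named after their values were seen, did not overlap between hosts. The same separation was shown by 1.71% of tested genes. Klrb1c was at 0 in 3 tumours of St2-/- hosts and 1 of WT hosts, and Ncr1, Prf1 and Cd8b1 were at 0 in 1 tumour of St2-/- hosts each. The 8 dendritic cell markers summed to 16 to 58.6 CPM in St2-/- hosts and to 35.6 to 68.8 CPM in WT hosts. Of these, 1, Clec9a, was called lower at -1.36 (SE 0.26; edgeR adjusted p = 0.033), as were 1.08% of all tested genes. In the dendritic list 6 were below 0 and 2 above 0, both averaged over marrows and within each marrow. The 10 macrophage markers summed to 285 to 573 CPM in St2-/- hosts and 534 to 1113 CPM in WT hosts, with 0 called by edgeR and 5 at an unadjusted p under 0.05. Within marrows the median log2 fold change of the macrophage list was 0.02 with St2-/- marrow in both hosts (4 of 10 below 0) and -1.27 with WT marrow in both (10 of 10 below 0). For the T cell and NK cell list the medians were -0.64 with St2-/- marrow and -0.95 with WT marrow, and for the dendritic list -0.51 with St2-/- marrow and -0.86 with WT marrow. The part of these cells in the host differences of Ido1 and Wars was not tested.

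Outside the members, 71 genes of transport, side branches, NAD, receptor signalling, tRNA charging and amino acid stress were listed, 59 were tested, and 1 was called between hosts by edgeR, 1 by limma-voom and 8 by DESeq2. Of all 15060 tested genes, edgeR called 206 (1.37%), limma-voom 193 and DESeq2 1196, and 3099 had an unadjusted edgeR p under 0.05. Nothing is read from the number of calls in the list. The gene called by edgeR was Nampt. It encodes the rate-limiting enzyme of NAD salvage from nicotinamide, a route to NAD that does not start from tryptophan. Nampt had 94.4, 104 and 96.4 CPM in St2-/- => St2-/- tumours and 112, 112 and 84.3 CPM in WT => St2-/- tumours, against 140, 217 and 153 CPM in St2-/- => WT tumours and 183, 179 and 169 CPM in WT => WT tumours. All 6 tumours of St2-/- hosts were below all 6 of WT hosts, as for 1.71% of tested genes. It fell by 0.79 on the log2 scale in St2-/- hosts (SE 0.12; edgeR adjusted p = 0.00987), with values of -0.72 (adjusted p = 0.118) without WT => St2-/- replicates 2 and 3, and -0.65 (adjusted p = 0.216) without all 4 libraries, the 2 of 21 alternatives in which it was not called.

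Promoter windows in RefSeq were found for 5 of the 10 members, Afmid, Haao, Kmo, Qprt and Tdo2. The 250 bases before the RefSeq start are shown for Irf1, Ifng and Nampt, because they were among the listed genes called between hosts. For Irf1 the first of 2 windows is shown. The window of Afmid is also shown, because it is the member whose window lies outside the annotated exons of its own gene. Exons of other genes, such as Tk1 on the opposite strand, were not checked for that window. Capitals mark matches on either strand to TTCNNNGAA (the gamma-activated site of the interferon response) or GCGTG (the core bound by AHR). The windows are on the plus strand of GRCm38.p6, at chr11:53769764-53770013 for Irf1, chr10:118440796-118441045 for Ifng, chr12:32820085-32820334 for Nampt and chr11:117825669-117825918 for Afmid.
Irf1: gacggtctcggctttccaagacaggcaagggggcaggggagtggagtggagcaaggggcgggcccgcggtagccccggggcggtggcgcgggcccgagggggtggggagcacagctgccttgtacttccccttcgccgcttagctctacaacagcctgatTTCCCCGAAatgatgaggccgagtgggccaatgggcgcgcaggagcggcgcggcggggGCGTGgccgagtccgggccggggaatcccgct
Ifng: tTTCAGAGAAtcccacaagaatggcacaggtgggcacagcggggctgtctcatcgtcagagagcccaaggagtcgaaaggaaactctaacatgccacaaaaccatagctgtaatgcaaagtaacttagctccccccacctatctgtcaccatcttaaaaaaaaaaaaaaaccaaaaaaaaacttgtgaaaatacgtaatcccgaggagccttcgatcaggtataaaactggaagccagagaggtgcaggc
Nampt: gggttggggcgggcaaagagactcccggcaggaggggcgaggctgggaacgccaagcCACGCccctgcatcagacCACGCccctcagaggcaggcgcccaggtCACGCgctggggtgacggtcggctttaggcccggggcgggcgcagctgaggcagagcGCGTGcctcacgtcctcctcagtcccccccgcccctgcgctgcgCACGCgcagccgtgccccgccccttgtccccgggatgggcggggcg
Afmid: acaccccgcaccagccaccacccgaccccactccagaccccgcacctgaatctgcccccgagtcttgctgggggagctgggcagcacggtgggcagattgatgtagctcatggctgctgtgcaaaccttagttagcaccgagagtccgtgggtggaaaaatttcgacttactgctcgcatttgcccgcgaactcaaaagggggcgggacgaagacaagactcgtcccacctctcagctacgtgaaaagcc
The Irf1 window shown held TTCNNNGAA at position -90 and GCGTG at -32, counted from the start. Its second window, at chr11:53770223-53770472, held GCGTG at -46 and -12 and no TTCNNNGAA. The Ifng window held TTCNNNGAA at -249. The Nampt window held 5 copies of GCGTG, at -193, -175, -147, -90 and -46, and no TTCNNNGAA. The Afmid window held neither. Over 32817 windows of the same length, 7.01% held TTCNNNGAA and 28.1% held GCGTG, so these matches describe the letters only.

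The other 9 genes of NAD synthesis and use did not pass, and the list of 10 had a median of -0.19. Cd38, an NAD-consuming enzyme, averaged 159 ± 93.0 CPM in St2-/- hosts and 365 ± 131 CPM in WT hosts, and its log2 fold change was -1.23 (SE 0.37; edgeR adjusted p = 0.123). Nadk, which phosphorylates NAD, was at -0.20 (SE 0.11; adjusted p = 0.345) and Nmnat1, which makes NAD from its mononucleotide, at -0.26 (SE 0.21; adjusted p = 0.498).

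Genes that move tryptophan across the membrane gave 0 calls among 6 tested of 7 (1 at an unadjusted p under 0.05, 0 by DESeq2), with a median of 0.31. Slc36a4 was at 1.09 (SE 0.38; edgeR adjusted p = 0.159), Slc6a14, an amino acid importer, at -1.16 (SE 0.54; adjusted p = 0.252) and Slc7a8 at 1.28 (SE 0.75; adjusted p = 0.359). Slc7a5 and Slc3a2, the subunits of the main exchanger of large neutral amino acids, were at -0.29 (SE 0.21) and 0.04 (SE 0.15).

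The list of kynurenine side branches held the aminotransferase genes that lead to kynurenic acid, Acmsd, and Gpr35, the gene of a kynurenic acid receptor. It gave 0 calls among 4 tested of 6 (3 at an unadjusted p under 0.05, 2 by DESeq2), with a median of -0.15. Of all 15060 tested genes, 3099 had such an unadjusted p and DESeq2 called 1196. Got2, a transaminase, averaged 63.0 ± 5.68 CPM in St2-/- hosts and 78.1 ± 6.70 CPM in WT hosts. Its hosts did not overlap, and its log2 fold change of -0.31 (SE 0.07) had an edgeR adjusted p of 0.0748. Among all tested genes, 1.71% were lower in St2-/- hosts without overlap. Ccbl2 and Ccbl1, both kynurenine aminotransferase genes, did not pass either, Ccbl2 with -0.70 (SE 0.22; adjusted p = 0.132), Ccbl1 with 0.36 (SE 0.16; adjusted p = 0.235).

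The serotonin and indole branch gave 0 calls among 5 tested of 9 (0 at an unadjusted p under 0.05 and 0 by DESeq2), with a median of -0.82. The median was -1.92 with St2-/- marrow in both hosts (4 of 5 below 0) and 0.09 with WT marrow in both (1 of 5 below 0). Maoa, a monoamine oxidase, was at -0.74 (SE 0.37; edgeR adjusted p = 0.285), Slc6a4, the serotonin transporter, at -1.12 (SE 0.60; adjusted p = 0.316) and Tph1, the tryptophan hydroxylase of gut endocrine cells, at -0.91 (SE 0.64; adjusted p = 0.445). Enteroendocrine markers summed to 140 to 637 CPM in St2-/- hosts and 77.1 to 827 CPM in WT hosts, with 0 called. Their median log2 fold change was -1.50 with St2-/- marrow (7 of 7 below 0) and -0.05 with WT marrow (4 of 7 below 0), and their part in these values was not tested.

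Partners and targets of the AHR protein gave 0 calls among 7 tested of 12 (0 at an unadjusted p under 0.05 and 0 by DESeq2), with a median of -0.24. Ugt1a6a was at -1.50 (SE 0.80; edgeR adjusted p = 0.312), Tiparp at -0.27 (SE 0.15; adjusted p = 0.313) and Ahrr at -0.63 (SE 0.43; adjusted p = 0.435). Cyp1a1, the best known target, had 4 reads in all over the 6 tumours of St2-/- hosts and 10 over the 6 of WT hosts, too few to test.

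Genes that answer a shortage of amino acids also gave 0 calls, among 8 tested (2 at an unadjusted p under 0.05, 2 by DESeq2), with a median of 0.10. Of all 15060 tested genes, 3099 had such an unadjusted p and DESeq2 called 1196. Eif2ak4, which encodes the kinase GCN2 that senses uncharged tRNA, averaged 30.1 ± 3.13 CPM in St2-/- hosts and 23.4 ± 1.86 CPM in WT hosts. Its tumours did not overlap between hosts, as for 0.963% of tested genes in that direction, and its log2 fold change was 0.37 (SE 0.10; edgeR adjusted p = 0.106). Asns, asparagine synthetase, was at -0.49 (SE 0.15; adjusted p = 0.131) and Sesn2 at 0.28 (SE 0.17; adjusted p = 0.369). Without WT => St2-/- replicate 1 the number of called genes among the 59 was 5, which added Asns, Got2, Cd38 and Kars, with adjusted p of 0.0192, 0.0387, 0.0446 and 0.0242. Without St2-/- => WT replicate 3 it was 2, which added Sesn2 with 0.0487.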

How the data were processed

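RNA of 12 colon tumours was read single-end from TruSeq libraries, per the labels' protocols. Alignment used TopHat and Bowtie2 on GRCm38 (mm10), per the submitters' processing notes. The counting tool, annotation and strand setting are not given in the sources used here, so overlapping genes are less certain. The authors deposited raw read counts of 24062 genes plus 5 summary rows without a gene, 49.8% to 59.6% of each library, which were left out. None of the 66 library pairs was identical.

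The fit used edgeR 4.0.16 in R 4.3.3 (filterByExpr, minimum count 10; TMM factors 0.899 to 1.12; robust quasi-likelihood; 1 coefficient per group), which kept 15060 genes and removed 9002. Calls are two-sided, at an adjusted p (Benjamini-Hochberg, all tested genes) under 0.05, and measure the spread between tumours labelled as biological replicates. Intervals are normal 95% bounds, and limits on a count of 0 cover counting error only. Levels per kb use merged exons of GENCODE M21. Code was tested on simulated data.

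The members, the 9 pathway lists and the marker lists were chosen with earlier results of these data known. Named genes were all members, listed genes called between hosts, up to 3 others per list by smallest p, and the 5 genes nearest to Ido1 and to Wars; some genes that this rule names are not reported here. The B cell list, the genes nearest to Kmo and Haao, and Slc7a5, Slc3a2, Nmnat1, Cyp1a1, Cd8a, Cd8b1 and Clec9a were added after their values were seen. Alternatives were DESeq2 1.42.0 (size factors, Wald test), limma-voom (limma 3.58.1), 2 other filters, a replicate block, a covariate for weeks since AOM, fits of the compared groups alone and leaving out each library. Leaving out WT => St2-/- replicates 2 and 3 together, for their smooth muscle markers, and leaving out these with St2-/- => WT replicates 1 and 2, were chosen after seeing the data. Libraries of the same number did not deviate together (18 pairs, r from -0.44 to 0.31).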

Additional observations from a re-analysis of the deposited data

Results flagged for a closer look

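Ido2 reads separated by marrow in opposite directions in the 2 hosts, on few reads and with no test passed. In St2-/- hosts, the 3 St2-/- => St2-/- tumours had 0, 2 and 1 reads, all below the 4, 6 and 3 reads of the WT => St2-/- tumours, a separation that 4.23% of tested genes showed in that direction. In WT hosts, the 3 St2-/- => WT tumours had 23, 12 and 8 reads, all above the 1, 7 and 7 reads of the WT => WT tumours, as 4.9% of tested genes were, and the log2 ratio of their mean CPM was 1.49. In an edgeR fit without the filter on low counts, over 19694 genes, the marrow log2 fold change was -2.12 (SE 0.96; adjusted p = 0.938) in St2-/- hosts and 1.47 (SE 0.76; adjusted p = 0.871) in WT hosts. The difference, St2-/- hosts minus WT hosts, was -3.59 (SE 1.22; unadjusted p = 0.0125, from edgeR; adjusted p = 0.612) and did not pass the correction. All 3 St2-/- => St2-/- tumours were at or under 3 reads, so a fold change rests on very few counts there.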

How the results depend on the processing

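Between hosts averaged over marrows, edgeR called 206 genes, 78.6% of them lower in St2-/- hosts. The DESeq2 Wald test called 1196, 57.3% of them lower, 8 genes were called without both WT => St2-/- replicates 2 and 3, and 4 without these and St2-/- => WT replicates 1 and 2 (all 4). Over 21 alternatives the log2 fold changes were -6.64 to -5.53 for Ido1 and -1.48 to -1.24 for Wars. Both genes were chosen with this contrast known, so these ranges are descriptions. Of members, 2 were called, and 1 without both replicates or all 4. Of the 59 other pathway genes, 1 was called, 8 by DESeq2 (Nampt, Got2, Ccbl2, Cd38, Kars, Nars, Asns and Eif2ak4) and 0 without both replicates or all 4. With St2-/- marrow in both hosts, 9 genes and 2 members were called. DESeq2 called 264 genes and 1 other pathway gene. The replicate block left 1 gene and 0 members, the weeks covariate 4 genes and 1 member, only the 2 groups 2 genes and 0 members, and leaving out all 4 left 1 gene and 0 members. With WT marrow in both hosts, 24 genes and 1 member were called. DESeq2 called 746 genes, 2 members and 6 other pathway genes. The replicate block left 13 genes, the weeks covariate 5, only the 2 groups 1 with 0 members, leaving out both replicates 3 with 0 members, and leaving out all 4 left 2 with 0 members. In St2-/- hosts the marrow comparison gave 0 calls, 14 by DESeq2, 1 without both replicates and 1 without all 4, and the interaction gave 0, 93 by DESeq2 and 1 without both replicates. The causes were not tested, except that fewer groups or libraries leave fewer residual degrees of freedom.

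With each library left out in turn, calls between hosts ranged over 80 to 484 averaged, 1 to 17 with St2-/- marrow and 1 to 142 with WT marrow. The averaged count moved by over 1.5 times without WT => WT replicate 1, 2 or 3 (130, 121 and 95), St2-/- => WT replicate 1 or 2 (132 and 86), WT => St2-/- replicate 1 (484) and St2-/- => St2-/- replicate 1, 2 or 3 (80, 128 and 84). Members called ranged over 2 to 2, 0 to 2 and 0 to 2, and other pathway genes over 1 to 5, 0 to 1 and 0 to 3. Marrow calls were 0 to 0 averaged and in WT hosts and 0 to 1 in St2-/- hosts, and the interaction gave 0 to 0. The replicate block left 152 averaged calls, both members among them, and 1 of 12 libraries deviated most like one of its own number, so the numbers are not taken to pair tumours. Of 2213 values recomputed, none that was called changed sign. Without all 4, Ugt1a6a turned to 0.17 and Sesn2 to -0.013, and the host value of Afmid changed sign in 6, Haao in 3 and Kmo in 1 of 21 alternatives. Depth limited Ido2, Tdo2, Qprt, Kmo and Haao most, with single digits of reads in some libraries.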
